A study of Mus musculus with 6 samples.

Results

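CD180, its partner MD-1, the co-receptor CD14 and 7 Toll-like receptors were followed in mouse mast cells at rest and after a calcium stimulus. These 10 genes were taken by name from the platform annotation, as rows with exactly 1 symbol equal to the gene, and are 10 of 30102 named genes on the arrays. Each of the 10 had 1 row, so the rule of taking the brightest row never had to choose. The set was drawn up with results of the same arrays known, because Cd180 showed the largest fall among the genes that passed the test. The difference of Cd180 is therefore given as a description with no test, and the other 9 genes are read from a fit over all genes.

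The cells were bone marrow-derived mast cells, a primary culture grown from femurs of C57BL/6J mice with interleukin 3 and a supernatant that contains stem cell factor, and matured for 6 weeks. The ionomycin group received 1 µg/mL ionomycin, an ionophore that carries calcium into cells, in Tyrode's buffer for 1 h. The naive group was kept in the buffer alone. Each group was then returned to medium for 3 h, which puts the RNA at 4 h from the start of activation. Each group had 3 whole-transcript Affymetrix arrays, and the comparison asks which transcripts differ after the first minutes in which granules are released. Whether the 3 replicates were separate cultures or animals is not in the labels, and the p-values cover no more than the spread among these samples, possibly a technical one.

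Toll-like receptors recognise molecules of microbes. TLR1, TLR2, TLR4 and TLR6 do so at the cell surface, and TLR3, TLR7 and TLR9 bind nucleic acids inside endosomes. TLR4 needs the small protein MD-2, encoded by Ly96, to sense bacterial lipopolysaccharide, and CD14 delivers the lipopolysaccharide to this pair. CD180, also called RP105, has an outer part built like that of TLR4 but lacks the signalling TIR domain, and it is held by MD-1, encoded by Ly86. In B cells, binding of CD180 by antibody drives proliferation, and in macrophages and dendritic cells it has been described as a brake on TLR4. Mast cells carry TLR2 and TLR4 and are known to answer lipopolysaccharide with cytokines rather than with granule release.

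Cd180 and Ly86 lie on the same chromosome, and their upstream sequences are shown because the transcripts of the 2 partner proteins read so differently on these arrays. They come from RefSeq (build GRCm38.p6, plus strand, 5′ to 3′) and are the 250 bases before the annotated start, for Cd180 at chr13:102693297-102693546, before the more upstream of its 2 listed starts, and for Ly86 at chr13:37345095-37345344. Capitals mark matches to any of 4 short motifs of factors that act in mast cells, which were chosen after the sequences had been seen and searched on both strands. GGAAGT is a core bound by ETS factors such as PU.1, a regulator of myeloid genes. The motif searched for the GATA factors, of which GATA2 is a mast cell regulator, was GATAAG. For AP-1, the dimer of FOS and JUN proteins induced by stimulation, the search used TGACTCA. The letters for MITF, a factor that mast cells need to mature, were CATGTG.
Cd180: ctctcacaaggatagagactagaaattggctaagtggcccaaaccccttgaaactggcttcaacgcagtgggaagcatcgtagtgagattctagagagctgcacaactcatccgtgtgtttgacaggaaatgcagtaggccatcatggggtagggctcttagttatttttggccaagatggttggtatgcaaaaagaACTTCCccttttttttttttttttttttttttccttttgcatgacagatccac
Ly86: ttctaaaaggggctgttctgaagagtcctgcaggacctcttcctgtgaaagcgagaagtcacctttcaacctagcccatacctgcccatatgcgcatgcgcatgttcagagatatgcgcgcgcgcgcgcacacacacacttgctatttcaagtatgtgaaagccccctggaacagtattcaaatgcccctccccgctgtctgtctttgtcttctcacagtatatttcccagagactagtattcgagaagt
The Cd180 sequence holds 1 match, to the ETS motif on the minus strand, which begins 53 bases before the start. The Ly86 sequence holds none of the 4 motifs, so no matches overlap. Of 32851 upstream sequences of the same length, 19.7% hold the ETS motif, 6.55% the GATA motif, 4.46% the AP-1 motif and 12.3% the MITF motif.

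Values are log2 signals, and a level of 5.99 served as background, the 95th percentile of 1752 chemosensory receptor genes. Medians of the arrays ran from 5.88 to 6.03. The replicate numbers pair the arrays across groups, mostly through replicate 1, which stood apart in both groups, so differences at each number are given too. All 10 mast cell markers were above background. Of the other marker lists, 4 of 7 measured B cell genes, 8 of 9 macrophage and monocyte genes, 3 of 8 dendritic cell genes, 6 of 8 neutrophil genes and 3 of 4 basophil genes were above it. Over all genes, 19200 of 30102 were above it, so these counts alone do not show a cell type to be present. In bulk RNA, fewer cells of a type and less RNA per cell cannot be told apart.

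Cd180 was lower in the ionomycin arrays. Its log2 signal was 10.46, 10.72 and 10.42 in naive replicates 1, 2 and 3, and 9.64, 9.48 and 9.46 in ionomycin replicates 1, 2 and 3. Every naive array was above every ionomycin array. The means were 10.53 ± 0.16 and 9.53 ± 0.10 (SD, n = 3 per group), a log2 difference of -1.00 ± 0.10 (SE), or 2.01-fold lower. The differences at replicate numbers 1, 2 and 3 were -0.82, -1.24 and -0.96, and the difference was -1.10 without both replicate 1 arrays. It was chosen as the first of 18 genes below the threshold as lower (0.0598% of all genes), so this place is no finding. The next of them was Kcne3, a potassium channel subunit, at -0.90. Another 6 genes had larger differences that did not pass: Il15, Ndst2, Ska2, Kif11, Elovl7 and Hrh4, named here after their values were seen.

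**Figure D1:**
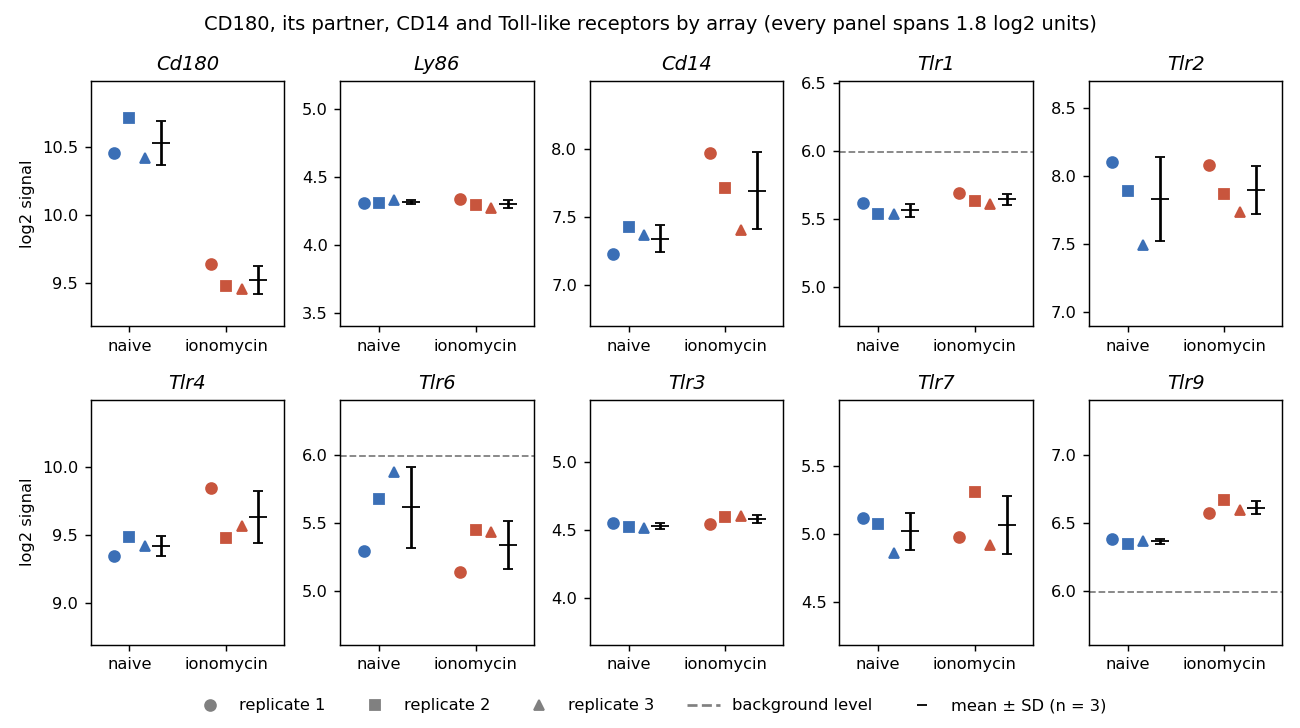
Log2 signal of each of the 10 genes on the 3 naive (blue) and 3 ionomycin (red) arrays, with the marker shape giving the replicate number, black bars the mean ± SD, and the dashed line the background level of 5.99 where it falls inside the panel. Cd180 is 2.01-fold lower with no overlap, Tlr9 is slightly higher with no overlap, and the groups overlap for the other 8 genes (over all genes, 7.31% are lower and 18.9% higher with no overlap).

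Ly86, which encodes the MD-1 protein that escorts CD180 to the surface, was below background on all 6 arrays. It was at 4.31, 4.31 and 4.34 in naive and 4.34, 4.30 and 4.28 in ionomycin replicates. The spread within each group was as large as the distance between them, and the log2 difference was -0.02 (95% interval -0.14 to 0.11, limma adjusted p = 0.891). At this level an array cannot tell a low transcript from none, so no fold is given. Ly86 was read from 1 row, and whether that row responds to its transcript was not tested. The partner of TLR4, by contrast, was well above background. Ly96 was at 10.62, 9.94 and 9.65 in naive and 9.90, 9.35 and 9.15 in ionomycin replicates, so replicate 1 was the highest of each group and the groups overlapped. Its difference was -0.61 ± 0.30 (SE, limma adjusted p = 0.356), and -0.73, -0.59 and -0.50 at replicate numbers 1, 2 and 3. With the replicate number as a block the adjusted p was 0.0559, and with a block of 2 levels, replicate 1 against the others, it was 0.0357, in a fit that called 677 genes higher and 744 lower. Over 16 other settings it ran from 0.0357 to 0.662, and the difference was -0.33 without naive replicate 1. Ly96 was singled out after its values were seen.

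Cd14, the lipopolysaccharide-binding co-receptor, was at 7.23, 7.42 and 7.36 in naive and 7.96, 7.71 and 7.40 in ionomycin replicates. The ionomycin arrays were spread over a wider range, and the lowest of them lay among the naive arrays. The log2 difference of 0.35 ± 0.15 (SE, 95% interval 0.00032 to 0.71) did not pass (limma adjusted p = 0.320). It was 0.74, 0.29 and 0.04 at replicate numbers 1, 2 and 3, and 0.16 without both replicate 1 arrays, so its size rested on replicate 1.

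Among the receptors of the cell surface, Tlr4 and Tlr2 were above background on all 6 arrays, and Tlr1 and Tlr6 were below it on all 6. Tlr4, the lipopolysaccharide receptor, was at 9.34, 9.49 and 9.42 in naive and 9.85, 9.48 and 9.57 in ionomycin replicates. Ionomycin replicate 1 was the highest array, and the other ionomycin arrays were close to the naive ones. The difference was 0.21 ± 0.11 (SE, 95% interval -0.04 to 0.47, limma adjusted p = 0.358), and 0.07 without both replicate 1 arrays. Tlr2, which pairs with TLR1 or TLR6 to bind bacterial lipopeptides, was at 8.10, 7.89 and 7.50 in naive and 8.08, 7.86 and 7.74 in ionomycin replicates. Replicate 1 was highest and replicate 3 lowest in both groups, and the groups overlapped throughout. The difference was 0.07 (95% interval -0.35 to 0.48, adjusted p = 0.852) and turned to -0.10 without naive replicate 3 and to -0.03 without ionomycin replicate 1.

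The 2 partners of TLR2 are encoded by neighbouring genes on chromosome 5, with 0 protein-coding genes between them. Tlr1 was between 5.54 and 5.62 in naive and between 5.61 and 5.69 in ionomycin arrays, a difference of 0.08 (95% interval -0.05 to 0.22, limma adjusted p = 0.472). Tlr6 was at 5.29, 5.67 and 5.87 in naive and 5.14, 5.45 and 5.43 in ionomycin replicates. It was lower in the ionomycin array at all 3 replicate numbers, by -0.15, -0.22 and -0.44, but the groups overlapped. Its difference of -0.27 (95% interval -0.68 to 0.13) missed the threshold (limma adjusted p = 0.430, 0.142 under the block, and 0.0868 to 0.625 over 15 other settings), and all of its values lie below background.

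Among the endosomal receptors, Tlr9, which binds unmethylated CpG DNA, was the only member above background, on all 6 arrays. It was at 6.38, 6.34 and 6.37 in naive and 6.57, 6.67 and 6.60 in ionomycin replicates. All 3 ionomycin arrays were above all 3 naive arrays, and the differences at the replicate numbers were 0.19, 0.32 and 0.23. The log2 difference was 0.25 ± 0.05 (SE, 95% interval 0.11 to 0.38), a 1.19-fold higher signal, and did not pass over all genes (limma adjusted p = 0.156, with 0.0139 to 0.469 over 16 other settings). It passed only with array weights (adjusted p = 0.0139), a setting in which 2240 genes were higher and 1654 lower. The difference fell to 0.17 after quantile normalization and 0.18 after centring of the arrays.

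The other endosomal receptors were below background on all 6 arrays. Tlr3, a sensor of double-stranded RNA, ran from 4.51 to 4.61, with a difference of 0.05 (95% interval -0.07 to 0.18, limma adjusted p = 0.612) that turned to -0.013 after centring. Tlr7, a sensor of single-stranded RNA, was at 5.12, 5.07 and 4.86 in naive and 4.98, 5.31 and 4.92 in ionomycin replicates. Its difference of 0.05 (95% interval -0.26 to 0.36, adjusted p = 0.851) turned to -0.016 after centring, and replicate 3 was the lowest array of each group.

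Over all 30102 genes, 0.0598% were called lower and 0.289% higher (limma, adjusted p under 0.05). With the replicate block these shares were 0.11% and 0.395%. Cd180 was chosen on this contrast and is left out of the counts that follow. Of the other 9, limma called 0. At an unadjusted p under 0.05, 2 of them (Cd14 and Tlr9) were higher and 0 lower, against 10.2% and 5.44% of all genes. No overlap between the groups was seen for 1 of the 9, Tlr9 as higher, beside 18.9% of all genes as higher and 7.31% as lower. The median difference of the 9 was 0.07, beside 0.05 for all genes.

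**Figure D2:**
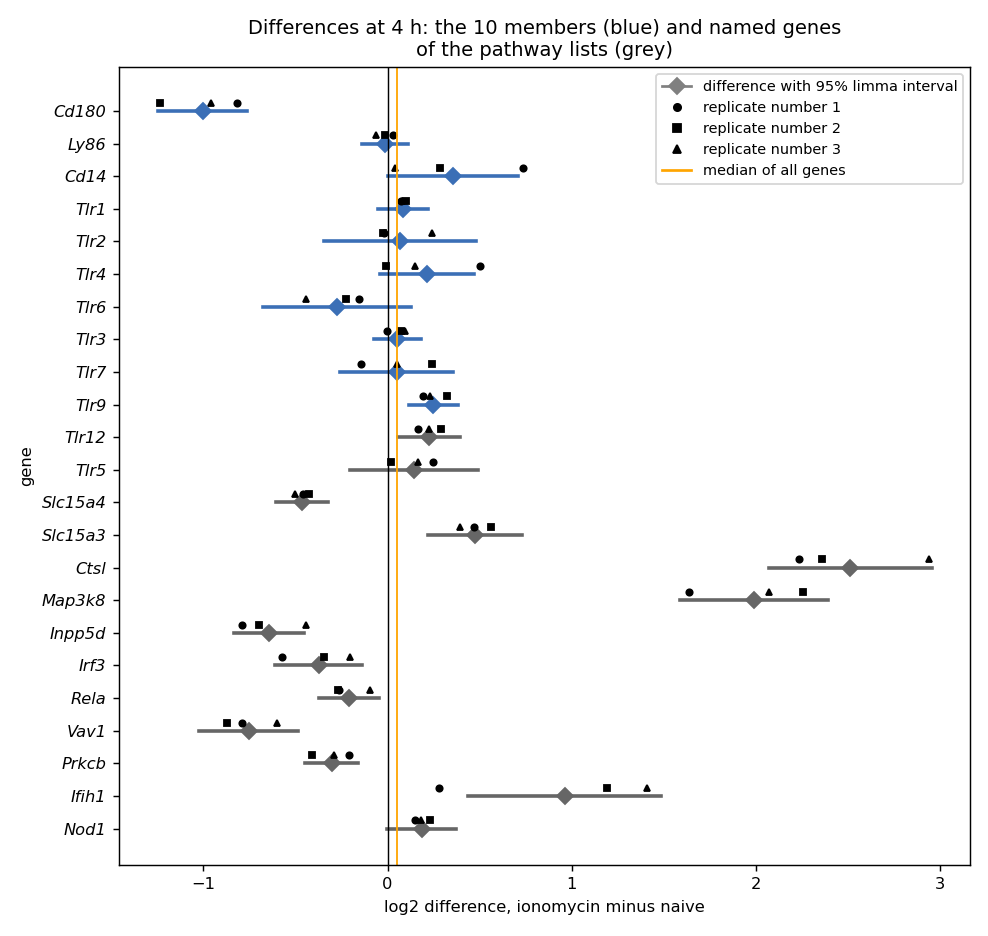
Log2 difference, ionomycin minus naive (diamonds, with 95% limma intervals), for the 10 members in blue and the named genes of the pathway lists in grey, with small black markers for the 3 replicate numbers and an orange line at the median of all genes, 0.05. Cd180 lies near -1.00 and the other 9 members between -0.27 and 0.35, while Ctsl and Map3k8 lie at 2.51 and 1.99. Cd180 was chosen on this contrast, so its interval is no test.

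Of the 5 Toll-like receptors outside the set, 0 passed by limma. At an unadjusted p under 0.05, 1 was higher and 0 were lower. For this and the following lists, the shares of all genes at that level were 10.2% higher and 5.44% lower. Limma called 0.289% of all genes higher and 0.0598% lower, and their median difference was 0.05. Tlr12, a receptor for profilin of protozoa, was at 6.66, 6.59 and 6.74 in naive and 6.82, 6.88 and 6.97 in ionomycin replicates. Its groups did not overlap, and its difference of 0.23 ± 0.07 (SE) did not pass (limma adjusted p = 0.241). Tlr5, the flagellin receptor, differed by 0.15 (adjusted p = 0.618), with overlapping groups. Tlr8, the neighbour of Tlr7 on chromosome X, was below background on every array. It was at 4.96, 4.81 and 4.26 in naive and 4.82, 5.16 and 4.39 in ionomycin replicates, so it was lowest in replicate 3 of each group, as Tlr7 was.

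Of 10 accessory and trafficking proteins, 0 passed by limma, with 2 at higher and 1 at lower signal for an unadjusted p under 0.05, and the median difference was -0.05. Slc15a4, an endosomal transporter that TLR7 and TLR9 signalling needs, was at 9.85, 9.93 and 9.92 in naive and 9.39, 9.50 and 9.42 in ionomycin replicates. The groups did not overlap and each group was tight. Its difference of -0.46 ± 0.06 (SE) fell just short of the threshold (limma adjusted p = 0.0510, 0.0294 after centring, and 0.00485 to 0.258 over 16 other settings). Its relative Slc15a3 was at 7.42, 7.56 and 7.38 in naive and 7.89, 8.13 and 7.77 in ionomycin replicates, a difference in the other direction of 0.48 ± 0.11 (SE, adjusted p = 0.157). The chaperone gene Hsp90b1, whose product folds most Toll-like receptors, was among the 10 at -0.05.

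Of the 4 proteases that cut endosomal receptors into their active form, 1 rose and 3 did not pass. The gene that rose was Ctsl, cathepsin L, by 2.51 ± 0.18 (SE, limma adjusted p = 0.0153). This call was lost without naive replicate 3 (adjusted p = 0.0636), ionomycin replicate 2 (0.124) or ionomycin replicate 3 (0.0895), while the difference stayed between 2.36 and 2.66 over 16 other settings (adjusted p from 0.00090 to 0.135).

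Of 22 measured adaptors, kinases and ubiquitin ligases downstream of the receptors, 1 rose, 0 fell and 21 did not pass, and the median was -0.01. At an unadjusted limma p under 0.05, 3 were higher and 2 lower, against 10.2% and 5.44% of all genes. The gene that passed was Map3k8, the kinase TPL2, higher by 1.99 ± 0.17 (SE, limma adjusted p = 0.0153). Without single arrays other than naive replicate 1 its adjusted p ran from 0.0547 to 0.130. Of the 9 negative regulators, 1 fell, 0 rose and 8 did not pass, with a median of -0.23. At an unadjusted limma p under 0.05, 1 was higher and 4 were lower, against the same shares of all genes. Inpp5d, the phosphatase SHIP1, fell by 0.64 (limma adjusted p = 0.0451). It did not pass with the replicate block (0.0702), nor without any single array (0.0644 to 0.267), and ran from 0.00343 to 0.267 over 16 other settings.

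Of 4 measured transcription factors, 0 passed by limma, and at an unadjusted p under 0.05, 0 were higher and 2 lower, Irf3 (-0.37, adjusted p = 0.203) and Rela (-0.21, adjusted p = 0.256). Of 4 measured signalling genes linked to CD180 in B cells, 0 passed by limma, and at an unadjusted p under 0.05, 0 were higher and 2 lower, with a median difference of -0.31. For all genes these shares were 10.2% and 5.44%, and the median difference was 0.05. Vav1, a guanine nucleotide exchange factor, was at 10.56, 10.44 and 10.19 in naive and 9.77, 9.57 and 9.59 in ionomycin replicates. The groups did not overlap. Its difference of -0.75 ± 0.11 (SE) did not pass without a block (limma adjusted p = 0.0702) and passed with the replicate block (0.0462), with 0.00382 to 0.311 over 16 other settings. Prkcb, protein kinase C beta, was at -0.30 ± 0.06 (SE, adjusted p = 0.119), again with no overlap. Lyn was on this list and was not analysed here.

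Innate sensors of other families were taken for comparison, and 0 of 10 passed by limma. An unadjusted p under 0.05 was met by 1 as higher and by 0 as lower, beside 10.2% and 5.44% of all genes. Ifih1, the RNA sensor MDA5, was at 7.35, 7.12 and 6.84 in naive and 7.63, 8.31 and 8.25 in ionomycin replicates. Its difference of 0.96 ± 0.22 (SE, limma adjusted p = 0.159) was 0.28 at replicate number 1 and 1.19 and 1.41 at the other two, and it passed without both replicate 1 arrays (adjusted p = 0.00775, and 0.00693 to 0.442 over 16 other settings). Nod1, a sensor of bacterial cell walls, was at 0.19 (adjusted p = 0.322). Over all these lists together, 68 genes beside the 10, 2 were called higher and 1 lower, against 0.289% and 0.0598% of all genes. The median difference of the 68 was 0.0013 (0.05 for all genes), which turned to -0.065 after centring (-0.013 for all genes).

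Genes of other cell types varied between the replicates, and some of the receptors varied beside them. Lyz2, a lysozyme of macrophages and other myeloid cells, was at 11.42, 11.16 and 9.54 in naive and 11.12, 11.51 and 9.98 in ionomycin replicates, lowest in replicate 3 of both groups. Csf1r, the macrophage growth factor receptor, was also lowest there, at 7.01 and 7.21. Tlr2, Tlr7 and Tlr8 were lowest in the same arrays, with Tlr7 and Tlr8 below background on every array. By contrast, Tlr5, Tlr11 and Tlr12 were highest in replicate 3 of both groups, with Tlr11 below background on every array. Of the other macrophage and monocyte genes, Adgre1, Mrc1, Ms4a7, C1qa and C1qb were lowest in replicate 3 of both groups. Fcgr1 was highest in naive replicate 3 (6.411, beside 6.410 in naive replicate 1) and lowest in ionomycin replicate 3. C1qc was lowest in naive replicate 3 and in ionomycin replicate 1 (7.39, beside 7.40 in ionomycin replicate 3). The summed linear signal of the 9 macrophage and monocyte genes ran from 1807 to 4158 in naive and from 2111 to 4399 in ionomycin arrays, with only Ms4a7 at or below background. Lyz2 weighed most in this sum, with a mean log2 signal of 10.79 over all arrays, beside 8.06 for the next, Adgre1. Cd180 was also lowest in replicate 3 of each group, at 10.42 and 9.46, close to 10.46 in naive replicate 1 and 9.48 in ionomycin replicate 2.

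The basophil proteases Mcpt8 and Prss34 were highest in replicate 1 of both groups, at 10.36 and 10.60 for Mcpt8 against 9.03 to 9.20 in the other arrays. The other genes of the basophil list, Cd200r3 and Itga2, were highest in replicate 3 of the ionomycin arrays. The summed signal of the list ran from 3364 to 5371 in naive and from 3112 to 5327 in ionomycin arrays, with Itga2 at or below background. Ly96 was likewise highest in replicate 1 of each group. For the B cell list, a cell type in which CD180 is abundant, the summed signal was 453 to 468 in naive and 477 to 518 in ionomycin arrays. The median difference of its 7 measured genes was 0.09, beside 0.05 for all genes. After quantile normalization it was 0.03, beside 0.014, and after centring it was 0.025, beside -0.013. Ms4a1, Ebf1 and Fcer2a were at or below background. The dendritic cell list ran from 541 to 572 in naive and 672 to 718 in ionomycin arrays, with Itgax at 6.70 to 7.33 and 7.55 to 7.95. Flt3, Zbtb46, Xcr1, Clec9a and Cd209a of that list were at or below background. Of the 6 marker lists, limma called 0 genes. At an unadjusted p under 0.05, 5 dendritic cell genes, 1 B cell gene and 1 mast cell gene were higher, and 3 mast cell genes and 1 basophil gene were lower. Of all genes, 10.2% were higher and 5.44% lower at this level. The dendritic cell genes counted were Itgax and Ccr7 and, at or below background, Flt3, Zbtb46 and Xcr1. The part of these cell types in the receptor values was not tested.

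**Figure D3:**
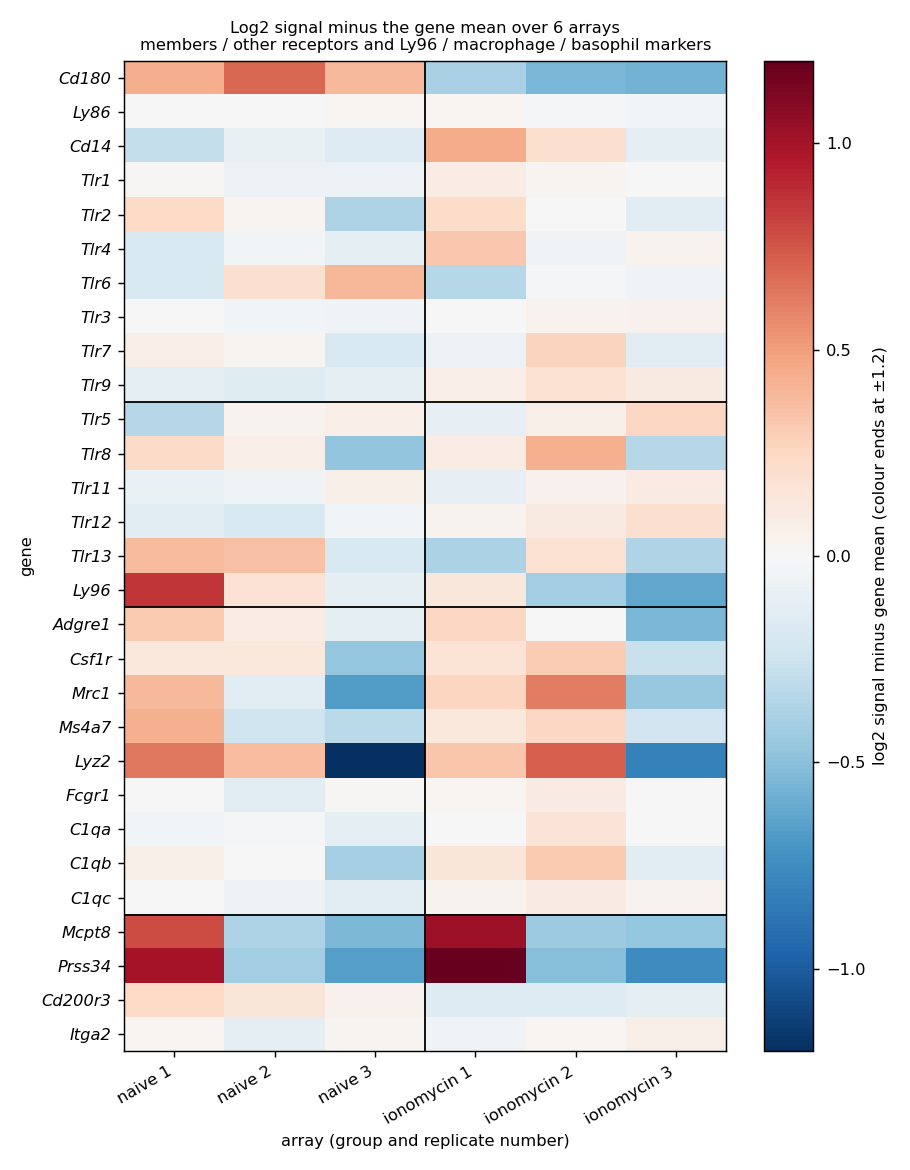
Log2 signal of each gene minus its mean over the 6 arrays (red higher, blue lower, colours ending at ±1.2), for the 10 members, the 5 other Toll-like receptors with Ly96, and the macrophage and basophil markers. Cd180 separates by group, Lyz2 and Csf1r are lowest in replicate 3 of both groups, and Mcpt8 and Prss34 are highest in replicate 1 of both groups. Fcgr1 and C1qc of the macrophage markers and Cd200r3 and Itga2 of the basophil markers do not follow these patterns in both groups.

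The genes whose values were most like those of Cd180 were found by Pearson's r over the 6 arrays among 4326 other genes above background with an SD of at least 0.2. The 5 highest were Srpk1 (r = 0.998), a kinase of splicing factors, Rin3 (0.994), a Rab5 exchange factor, Kcne3 (0.989), Pacc1 (0.989), a chloride channel, and Hectd3 (0.988), a ubiquitin ligase. The likeness is mostly that of the group difference, since in all 5 every ionomycin array was below every naive array, and naive replicate 2 was the highest array, as for Cd180. Their log2 differences of -0.43, -0.63, -0.90, -0.46 and -0.42 were all smaller in size than that of Cd180. They were picked for this likeness, so no test is given, and with 6 arrays in 2 groups many genes reach a high r.

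**Figure D4:**
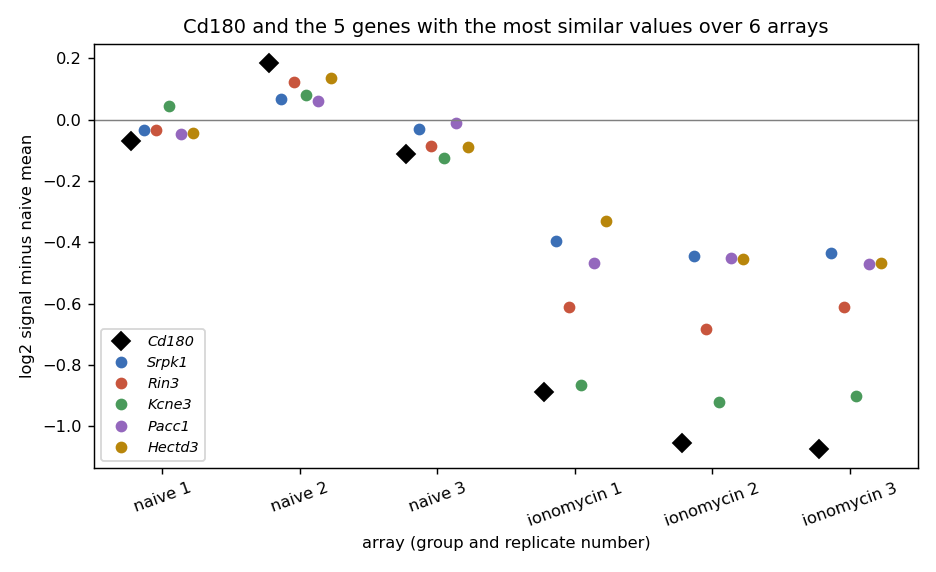
Log2 signal minus the mean of the 3 naive arrays for Cd180 (black diamonds) and the 5 genes most like it (circles), by array. All 6 genes are lower on the 3 ionomycin arrays, by 1.00 for Cd180 and between 0.42 and 0.90 for the others.

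The fall of Cd180 kept its direction in all 16 other settings, but these refit the same arrays on which Cd180 was chosen. Its groups did not overlap, so leaving out arrays could not turn the sign. The settings therefore show only how far the size moved. The log2 difference of Cd180 ran from -1.16 with array weights to -0.91 without naive replicate 2. It was -1.01 after quantile normalization and -1.07 after centring.

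**Figure D5:**
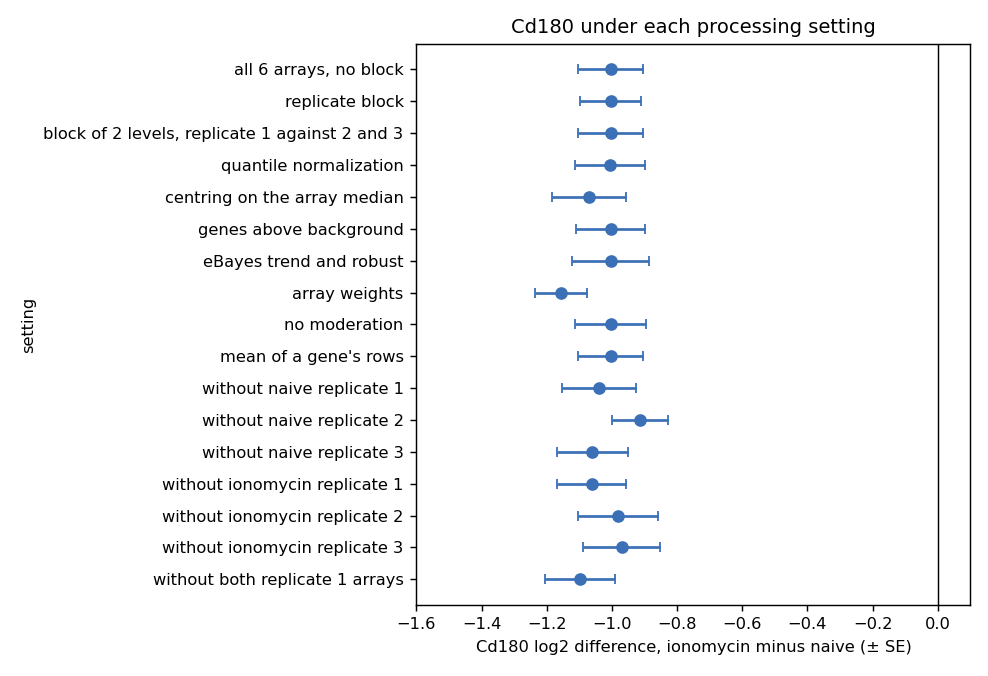
Log2 difference of Cd180, ionomycin minus naive, with its SE, in the fit over all 6 arrays without a block and in 16 other settings. All points lie between -1.16 and -0.91.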

How the data were processed

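The authors deposited log2 signals for 65770 rows on 6 arrays, with 0 values missing. The R package oligo was used, per the submitters' processing notes; how the values were summarized and normalized, the package version and the build are not given in the sources. The log2 scale was read from the values (3.01 to 14.63), and the number of arrays limits precision. Gene names come from the platform annotation, in which 30439 rows have 1 symbol, 2146 several and 33185 none. For 827 rows the symbol was brought up to date by Entrez ID with RefSeq (GRCm38.p6, used for names, neighbours and upstream sequences), and the brightest row per gene was kept.

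Groups and replicate numbers come from the titles. The groups were compared in limma 3.58.1 (in R 4.3.3; lmFit and eBayes, two-sided, no block), with Benjamini-Hochberg adjustment over 30102 genes and a threshold of 0.05. The fit was tested on simulated data with noise independent between arrays, which does not cover the deviation that the replicate 1 arrays share. Same-numbered arrays deviated together across genes (r = 0.711, 0.476 and 0.469), so the replicate block is given where it changes a call. Numbers 2 and 3 were not told apart, since naive 2 with ionomycin 3 (0.524) and naive 3 with ionomycin 2 (0.481) were as close. The members and lists were chosen with earlier results of these data known. Named genes are the members, the genes past the threshold in each list or otherwise the 2 above background with the lowest p, and the 5 most like Cd180, leaving out predicted genes. Of 75 other list genes, 68 were measured. Alternatives were 2 blocks, 2 scalings, a filter on dim genes, 3 variance settings, the mean of a gene's rows, each array left out, and both replicate 1 arrays left out.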

Additional observations from a re-analysis of the deposited data

How the results depend on the processing

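With 3 arrays per group the number of calls moved with the variance model. Over all genes 87 were higher and 18 lower. With array weights these counts were 2240 and 1654, with the block of 2 levels 677 and 744, without both replicate 1 arrays 423 and 429, with the replicate block 119 and 33, after centring 69 and 32, after quantile normalization 88 and 27, with eBayes trend and robust settings 78 and 9, and with no moderation 0 and 0. Without single arrays they ran from 1 to 95 higher and from 0 to 55 lower. Among the 10 members 0 were called higher, except 1 (Tlr9) with array weights, and 1 lower. That 1 is Cd180, which was chosen by this call, so its count describes the choice: the count was 0 with no moderation and without each of naive replicates 2 and 3 and ionomycin replicates 1, 2 and 3 (0 to 1 without single arrays). In those 5 fits the log2 difference of Cd180 lay between -1.06 and -0.91. Among the 68 other pathway genes 2 were called higher and 1 lower. These counts were 8 and 13 with array weights, 4 and 6 with the block of 2 levels, 4 and 5 without both replicate 1 arrays, and 0 and 0 with no moderation; 0 were lower after quantile normalization and with trend and robust settings. Without single arrays they ran from 0 to 2 higher and from 0 to 0 lower. Of 459 values for the members, Ly96, the 13 named pathway genes and the 5 genes most like Cd180 (Ly96 and these 5 added after their values were seen), 6 changed sign, none of them called: Tlr2 was -0.10 without naive replicate 3 and -0.03 without ionomycin replicate 1, Tlr3 was -0.013 and Tlr7 -0.016 after centring, and Tlr7 was -0.03 without naive replicate 3 and -0.071 without ionomycin replicate 2. Without single arrays the range was -0.10 to 0.20 for Tlr2 and -0.071 to 0.13 for Tlr7. The replicate block took the call from Inpp5d and gave it to Vav1, and changed no other call among the members and named pathway genes. The 5 genes most like Cd180 were picked for that likeness, so their calls are not read here. The causes were not tested. The 5 members below background on all arrays (Ly86, Tlr1, Tlr3, Tlr6 and Tlr7) have levels that signal over background cannot resolve.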
